A study of Drosophila melanogaster with 40 samples.

Results

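The ind locus is a stretch of 5992 bp on chromosome arm 3L (15039504 to 15045495, dm6) that held 3 of the final binding peaks of Capicua (Cic), whose list comprises the 468 MACS2 calls of the study less 365 that were left out. Members were all final peaks that the authors annotated to ind (1 peak) or to Rpn12R (2 peaks), by gene symbol. Binding was measured by ChIP-seq with an antibody against GFP in early Drosophila embryos of nuclear cycle 14, in 7 groups. OptoSOS embryos carried UAS-OptoSOS over gal4 and CicsfGFP over gal4, with the maternal triple driver MTD gal4, and were given no light or 1, 5 or 30 min of blue light, which activates Ras and the kinase ERK through recruited SOS. TorD4021 embryos carried 1 copy of the constitutively active Torso receptor allele and 1 copy of cicsfGFP. Wild type embryos carried 1 copy of CicsfGFP over +, and OreR embryos carried no tag and served as the control for the antibody. Every group except OreR had super-folder GFP on 1 copy of cic. All groups were collected for 3 to 4 h and fixed for 15 min, which is longer than the pulses of 1 and 5 min. The labels list 3 ChIP libraries per group, and 2 for 1 min of light.

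Cic is an HMG-box protein that keeps its target genes silent, and phosphorylation by ERK relieves that silencing. The gene ind (intermediate neuroblasts defective) encodes a homeodomain protein that specifies the intermediate column of the neuroectoderm. Its stripe depends on the Dorsal gradient and on EGFR signalling, and Cic is known as one of its repressors. Rpn12R (regulatory particle non-ATPase 12-related) is named for its relation to Rpn12, a subunit of the proteasome lid. Sytbeta, the host gene here, belongs to the synaptotagmins, which act in membrane trafficking.

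Both genes lie inside Sytbeta (15014695 to 15064977) by RefSeq's annotation of the same assembly, and the authors placed all 3 peaks in intron 2 of 7 of 1 transcript, FBtr0299848. On the minus strand ind spans 15042799 to 15043924 and Rpn12R 15041631 to 15042570, so that 228 bp separate them and Rpn12R is downstream of ind. The ind peak (15045121 to 15045495, 375 bp) had its summit 1334 bp upstream of the start of ind. The peaks named for Rpn12R lay on the other side, beyond the 3′ ends of both genes. Rpn12R peak 1 (15039504 to 15039967, 464 bp) had its summit 1892 bp beyond the 3′ end of Rpn12R and 4185 bp downstream of the start of ind. Rpn12R peak 2 (15040299 to 15041028, 730 bp) had its summit 824 bp beyond the 3′ end of Rpn12R and 3117 bp downstream of the start of ind. Neither overlapped the body of the gene it was annotated to. Which gene these sites serve was not tested.

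In wild type embryos Rpn12R peak 1, not the peak named for ind, was the strongest of the locus. The authors' deposited fold enrichment of wild type over untagged chromatin was 11.7 at ind, 21.7 at Rpn12R peak 1 and 10.4 at Rpn12R peak 2, against a median of 7.19 over all final peaks. By fold enrichment they ranked 26, 6 and 31. The gap between the Rpn12R peaks was 331 bp, and of 98 gaps between neighbouring final peaks 1 was smaller. A stretch of this length held 3 final peaks at 1 other place only, that of CG15480, CG16813 and CG16815.

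A 4th MACS2 call lay across the start of ind and was not in the final list. It spanned 15043806 to 15044200, with its summit 194 bp upstream of the start. Its deposited fold enrichment was 2.41 and its -log10 q value 3.78, against minima of 5.02 and 13.5 in the final list. The untagged background that MACS2 used for that call, worked out from the deposited pileup and fold enrichment, was 16. It was 7.61 at ind, 7.48 at Rpn12R peak 1 and 11 at Rpn12R peak 2. Over final peaks its median was 8.55 and its lowest value 6.90. This background is not coverage counted at the site, so untagged coverage at the calls themselves is not known. Of the 365 calls left out of the final list, 43 had a fold enrichment as low or lower. No other call was made within 50 kb of the peaks.

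**Figure D1:**
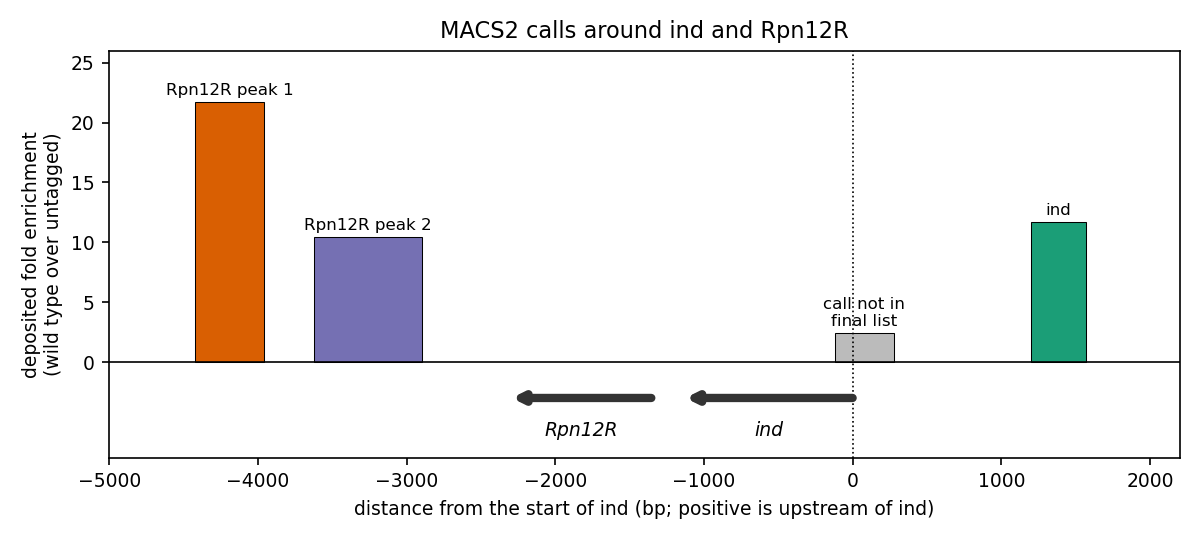
Deposited MACS2 fold enrichment (wild type over untagged, y axis) of the 4 calls around ind and Rpn12R, drawn to scale against the distance from the start of ind in bp (x axis), with bars as wide as the calls and arrows for the genes and their direction. The peaks named for Rpn12R stand at 21.7 and 10.4 beyond the 3′ ends of both genes, the ind peak at 11.7 upstream of ind, and the grey call of 2.41 covers the start of ind.

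Signal in 6 conditions was deposited as 1 combined matrix of z-scores per condition, without the untagged embryos, so no spread between embryos is known and no p-value is given. From each matrix the read coverage was recovered. The level of a peak is its coverage over noise, that is, mean coverage within 250 bp of the window centre divided by the mean coverage of the authors' noise peaks, so that 1 stands for the noise level. The window centre was not at the same place in every condition. Centres of the Rpn12R windows lay 910 bp apart after 30 min and 1080 bp apart in wild type. The ind window lay 20 to 60 bp from its wild type place in the other conditions. Main levels, ratios and shares thus do not compare exactly the same DNA. Values at fixed positions, given where stated, use the deposited peak intervals instead. Each level and ratio has a 95% interval that covers counting error only, and where the interval of a ratio excludes 1 the peak is called lower, or higher, past counting error.

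At ind the level was 12.03 without light (interval 10.8 to 13.3), 16.97 after 1 min (15.2 to 18.9), 4.07 after 5 min (3.33 to 4.89) and 2.16 after 30 min (1.63 to 2.86), beside 3.40 in TorD4021 embryos (2.78 to 4.14) and 7.37 in wild type (6.37 to 8.45). At Rpn12R peak 1 it was 17.3 without light (15.9 to 18.9), 25.7 after 1 min (23.5 to 28.003), 6.76 after 5 min (5.82 to 7.83) and 2.29 after 30 min (1.74 to 3.00), beside 5.32 in TorD4021 (4.53 to 6.23) and 13.9 in wild type (12.5 to 15.3). At Rpn12R peak 2 it was 17.4 without light (15.96 to 18.99), 21.99 after 1 min (19.98 to 24.2), 3.85 after 5 min (3.16 to 4.69) and 1.84 after 30 min (1.34 to 2.47), beside 3.55 in TorD4021 (2.90 to 4.29) and 11.1 in wild type (9.87 to 12.4). All 3 peaks had the same order of conditions, with 1 min highest, then no light, wild type, 5 min, TorD4021 and 30 min. Neighbours in that order differed beyond counting error at every step, except 5 min and TorD4021 at ind (ratio 1.197, 0.900 to 1.58) and at Rpn12R peak 2 (1.09, 0.825 to 1.45). At Rpn12R peak 1 that ratio was 1.27 (1.02 to 1.58).

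**Figure D2:**
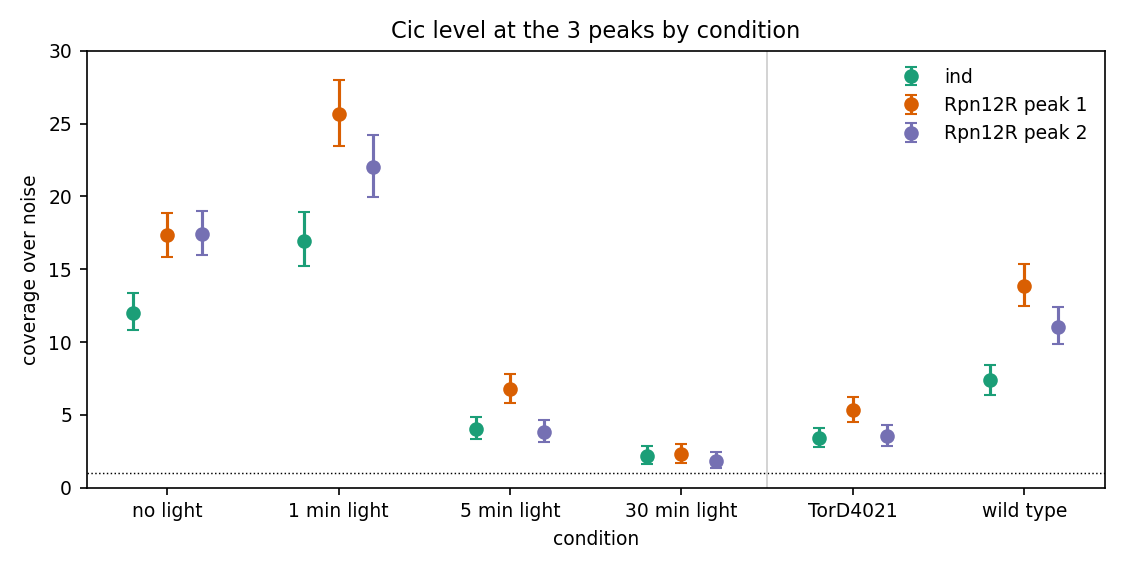
Coverage over noise (y axis, 1 is the noise level, dotted) at the ind peak and both Rpn12R peaks in each condition (x axis), with bars for the 95% interval of counting error of 1 combined matrix each. All 3 peaks stand highest after 1 min of light, at 16.97, 25.7 and 21.99, and lowest after 30 min, at 2.16, 2.29 and 1.84.

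Without light, Cic coverage was higher in OptoSOS embryos than in wild type at all 3 peaks. The ratio of no light to wild type was 1.63 at ind (1.37 to 1.96), 1.25 at Rpn12R peak 1 (1.09 to 1.43) and 1.57 at Rpn12R peak 2 (1.36 to 1.82). Of all final peaks 46.6% were called higher and 2.91% lower in this comparison, with a median ratio of 1.19. Counted from the highest ratio among all final peaks ind ranked 3 and Rpn12R peak 2 ranked 5, whereas Rpn12R peak 1, at rank 39, was nearer the middle. The rank of Rpn12R peak 2 depends on its window. With fixed positions its ratio was 1.34 (1.19 to 1.52), below the main interval, while that at ind was 1.64 (1.36 to 1.97). Since the members share their libraries, the scaling cancels when 2 peaks are compared. The ratio at ind was 1.31 times that at Rpn12R peak 1 (95% interval on the log scale, counting error only, 1.05 to 1.63). Between the Rpn12R peaks it was 1.26 times higher at peak 2 (1.04 to 1.53), but 1.08 times with the deposited peak intervals held at fixed positions (0.899 to 1.29). With each window's highest value the ratio was 1.48 at ind (1.08 to 2.05), while at Rpn12R peak 1 (1.18, 0.921 to 1.52) and Rpn12R peak 2 (1.31, 0.966 to 1.76) the interval included 1. Subtracting both flanks gave 1.03 at Rpn12R peak 1 (0.899 to 1.18), but 1 of these flanks holds the neighbouring peak. With only the outer flank subtracted, an alternative chosen after the data were seen, the ratio there was 1.26 (1.10 to 1.44). Both intervals leave out the error of the subtracted flanks. Lines and libraries cannot be told apart here.

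After 1 min of light none of the 3 peaks had lost coverage. The ratio of 1 min to no light was 1.41 at ind (1.21 to 1.64), 1.48 at Rpn12R peak 1 (1.31 to 1.68) and 1.26 at Rpn12R peak 2 (1.11 to 1.44), each higher beyond counting error. Of all final peaks 63.1% were called higher and 0.971% lower, with a median of 1.26. The noise coverage by which levels are divided was lowest in the 1 min matrix, at 2.83 reads, compared with 4.33 without light. Before division, mean coverage was 47.99 reads after 1 min and 52.1 without light at ind, 72.6 and 75.01 at Rpn12R peak 1, and 62.2 and 75.4 at Rpn12R peak 2. With z-scores the difference of 1 min minus no light was 2.66 at ind, 5.08 at Rpn12R peak 1 and 0.900 at Rpn12R peak 2. The part of the noise level in this difference was not tested. With each window's highest value the call was lost at ind (1.31, 0.982 to 1.76) and Rpn12R peak 2 (1.32, 0.989 to 1.74).

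After 5 min of light all 3 peaks were lower than without light beyond counting error, as were 93.2% of all final peaks. Coverage was 2.96-fold lower at ind (2.39 to 3.71), 2.56-fold lower at Rpn12R peak 1 (2.16 to 3.05) and 4.52-fold lower at Rpn12R peak 2 (3.64 to 5.61), compared with a median of 2.02-fold over all peaks. By mean coverage the neighbours within the pair thus differed in size of fall. The fall at Rpn12R peak 2 was 1.76 times that at Rpn12R peak 1 (1.35 to 2.31), and with the deposited peak intervals held at fixed positions it was 1.54 times (1.2 to 1.97). Against ind it was 1.53 times (1.13 to 2.06), but 1.22 times with fixed positions, where the interval included 1 (0.909 to 1.64). In rank from the largest fall of mean coverage Rpn12R peak 2 stood at 3, ind at 15 and Rpn12R peak 1 at 30. With each window's highest value the difference within the pair was smaller and the intervals overlapped. The ratio of 5 min to no light was then 0.333 at Rpn12R peak 1 (0.233 to 0.468) and 0.278 at Rpn12R peak 2 (0.177 to 0.423). At ind it was 0.254 (0.154 to 0.395), the lowest of the 3.

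After 30 min the level was 2.16 at ind, 2.29 at Rpn12R peak 1 and 1.84 at Rpn12R peak 2. All 3 were still above the noise level of 1 past counting error, and the median level of all final peaks was 2.54. Coverage was lower than without light by 5.56-fold at ind (4.12 to 7.54), 7.57-fold at Rpn12R peak 1 (5.69 to 10.1) and 9.44-fold at Rpn12R peak 2 (6.94 to 13.2), while 95.1% of all peaks were called lower and their median was 3.11-fold. With the coverage of the outer flanks of the windows subtracted, an alternative chosen after the data were seen, these were 8.79-fold, 12.5-fold and 17.8-fold. No peak was called higher (0.0% of all). From the 5 min level, the 30 min level was lower by 1.88-fold at ind (1.33 to 2.65), 2.95-fold at Rpn12R peak 1 (2.16 to 4.05) and 2.09-fold at Rpn12R peak 2 (1.46 to 3.06), where 50.5% of all peaks were called lower and 0.0% higher, with a median of 1.47-fold. Subtraction of the outer flanks gave 4.70-fold at Rpn12R peak 1, and with each window's highest value the call at ind was lost, at a ratio of 0.613 (0.285 to 1.25). Against no light the 30 min fall at Rpn12R peak 2 was 1.70 times that at ind (1.11 to 2.59), and 1.51 times with fixed positions, where the interval included 1 (0.993 to 2.29).

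The share of the fall reached early was compared between the peaks. Of the fall seen at 30 min, 80.7% had been reached at 5 min at ind, 70.3% at Rpn12R peak 1 and 87.1% at Rpn12R peak 2. Over all peaks with a fall, the quartiles were 66.6% and 90.6% and the median 78.8%, so all 3 lay inside the middle range. Rpn12R peak 1 thus kept more coverage than its neighbour at 5 min, and at 30 min the levels of the 2 peaks had counting intervals that overlapped. A later change that differed within the pair was not seen past counting error. The ratio of 30 to 5 min at Rpn12R peak 2 was 1.41 times that at Rpn12R peak 1 (0.888 to 2.25). With fixed positions it was 1.33 times (0.857 to 2.05). Against no light the 30 min fall at Rpn12R peak 2 was 1.25 times that at Rpn12R peak 1 (0.824 to 1.89). From 5 to 30 min the ratio at ind was 1.57 times that at Rpn12R peak 1 (1.002 to 2.46), and 1.64 times with fixed positions (1.02 to 2.63).

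Torso is a receptor tyrosine kinase upstream of ERK at the embryo's poles, and its TorD4021 allele was compared with wild type. Coverage was lower in TorD4021 embryos by 2.17-fold at ind (1.69 to 2.77), 2.61-fold at Rpn12R peak 1 (2.15 to 3.15) and 3.12-fold at Rpn12R peak 2 (2.50 to 3.95). All 3 were lower beyond counting error, as were 87.4% of final peaks, whose median was 2.20-fold. The fall at Rpn12R peak 2 was 1.44 times that at ind (1.04 to 1.99), or 1.63 times with fixed positions (1.18 to 2.24). In the same comparison Rpn12R peak 2 and Rpn12R peak 1 differed 1.197 times (0.896 to 1.60) within windows, and 1.41 times at fixed positions (1.07 to 1.85).

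Coverage at 30 min was lower than in TorD4021 embryos by 1.57-fold at ind (1.11 to 2.23), 2.33-fold at Rpn12R peak 1 (1.69 to 3.21) and 1.92-fold at Rpn12R peak 2 (1.34 to 2.80). Of all peaks 36.9% were called lower and 7.77% higher, and the median was 1.21-fold. Only the call at Rpn12R peak 1 held under every alternative tried: with windows within 500 bp the ratio at ind was 0.867 (0.654 to 1.14), and with each window's highest value that at Rpn12R peak 2 was 0.6004 (0.273 to 1.23), while subtraction of the outer flanks gave 3.10-fold there. The groups also differ in genotype and driver, which cannot be told apart from the duration of signalling.

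**Figure D3:**
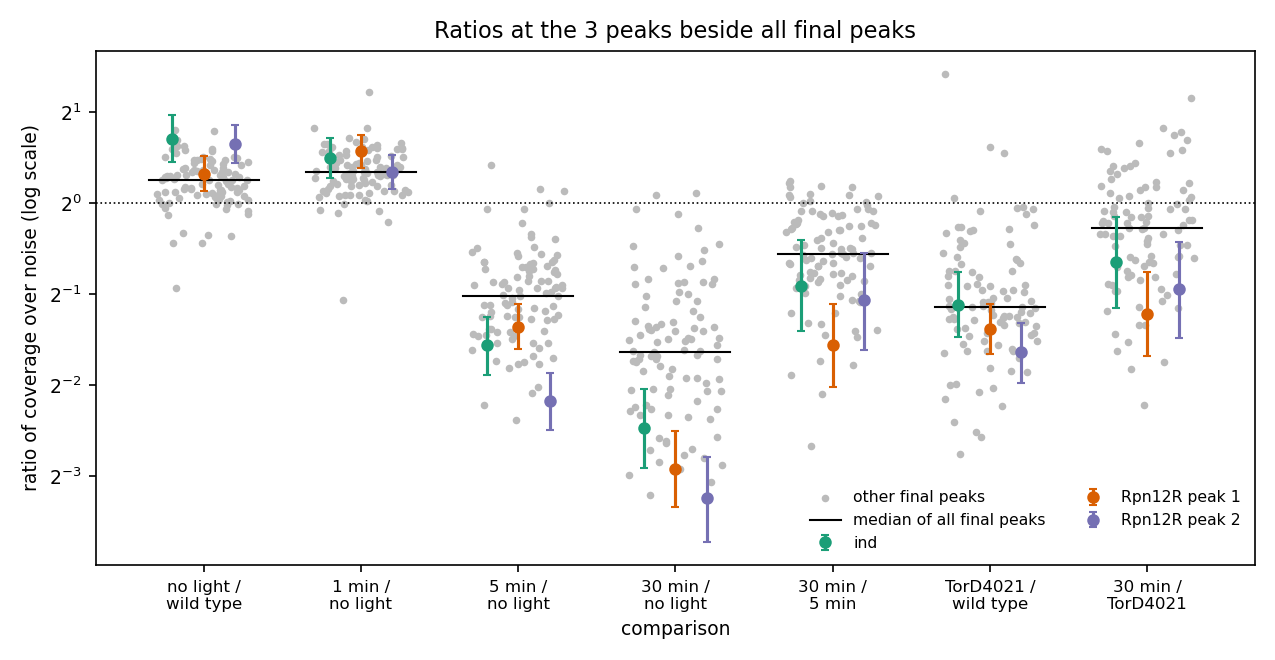
Ratio of coverage over noise (y axis, log scale) in 7 comparisons (x axis) for the ind peak and both Rpn12R peaks, with bars for 95% counting intervals, beside all other final peaks (grey points, spread sideways at random) and the median of all peaks (black line). At 30 min against no light the 3 peaks lie 5.56-fold, 7.57-fold and 9.44-fold below equality, under the median of 3.11-fold.

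Within a condition the share of each peak in the summed reads of the 3 needs no scaling between conditions. Rpn12R peak 2 held 37.2% without light (exact binomial interval 34.7 to 39.8), 34.03% after 1 min (31.4 to 36.7), 26.2% after 5 min (22.1 to 30.97) and 29.3% after 30 min (22.2 to 37.3). Rpn12R peak 1 held 37.04%, 39.7%, 46.03% and 36.4% in that order, and ind 25.7%, 26.3%, 27.7% and 34.4%. In TorD4021 embryos the shares were 27.7% at ind, 43.4% at Rpn12R peak 1 and 28.9% at Rpn12R peak 2, compared with 22.8%, 42.9% and 34.2% in wild type. In these windows of equal length Rpn12R peak 1 held the larger share of the pair in every condition except no light, where the shares were nearly equal. Their intervals did not overlap at 1 min, at 5 min, in TorD4021 or in wild type, and overlapped without light and at 30 min. The 30 min shares rest on 150 read equivalents in all, that is, read bases divided by the tag size of 74 bp. The order within the pair depends on the stretch counted, since the deposited interval of peak 2 is the longer. Within the deposited intervals peak 2 held more read equivalents than peak 1 without light (632 and 511) and at 1 min (539 and 492). It also held more at 30 min (55.7 and 52.3) and in wild type (427 and 371). Peak 1 held more at 5 min (178 and 143.5) and in TorD4021 (155 and 127).

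**Figure D4:**
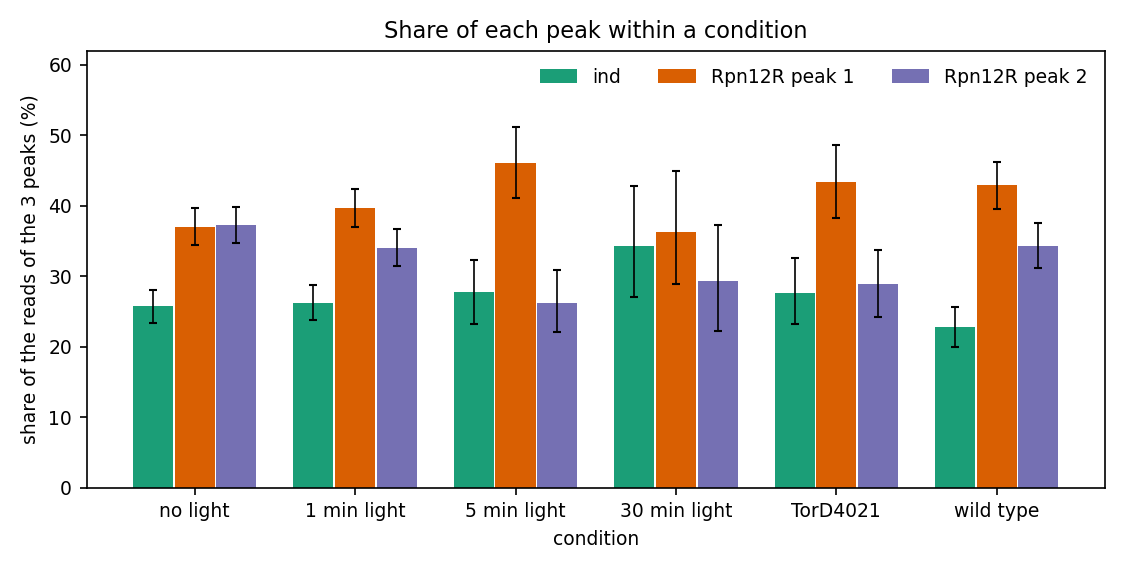
Share of the ind peak and both Rpn12R peaks in their summed reads (y axis, percent) in each condition (x axis), with bars for 95% exact binomial intervals that cover counting error only. The Rpn12R peaks stand at 37.04% and 37.2% without light and at 46.03% and 26.2% after 5 min.

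The windows of the Rpn12R peaks overlap, and their shared parts held identical coverage in all 6 conditions, in 93 to 110 windows of 10 bp. They were therefore joined into 1 profile per condition and laid on the wild type profile by shape, where the correlation was 0.971 without light, 0.968 at 1 min, 0.900 at 5 min, 0.721 at 30 min and 0.861 in TorD4021. The summit of peak 1 stayed within 40 bp of its wild type place in every condition. From that place the highest point of peak 2 lay at 1020 bp without light, 1060 bp after 1 min, 1020 bp after 5 min, 950 bp after 30 min, 990 bp in TorD4021 and 1080 bp in wild type, so it was nearest to peak 1 after 30 min, where coverage was lowest. Between the peaks coverage came down to 1.45 at its lowest point without light and to between 0 and 0.990 in the other conditions, with 0.442 in TorD4021 and 0.535 in wild type.

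Rpn12R peak 2 had a shoulder on the side of peak 1. In wild type the shoulder, 150 bp long from 700 bp beyond the summit of peak 1, averaged 12.9 (10.6 to 15.7), a dip of 50 bp next to it 8.66 (5.50 to 13.01), and the summit part, the 200 bp from 950 bp on, 17.5 (15.1 to 20.2). These 50 bp were chosen for their low wild type coverage, so they are given as a description. The other conditions had no such low point relative to the shoulder, except 30 min: the 50 bp and the shoulder averaged 18.1 and 15.0 without light, 24.97 and 20.97 after 1 min, 3.801 and 3.76 after 5 min, 0.831 and 1.61 after 30 min, and 3.98 and 3.88 in TorD4021. At 30 min the 50 bp rest on 1.95 read equivalents, and their interval (0.103 to 3.08) includes the shoulder's level. Width at the level of 50% of the highest point was 450 bp at Rpn12R peak 2 without light and 240 bp in wild type. At this peak it was 430 bp after 1 min, 270 bp after 5 min, 190 bp after 30 min and 360 bp in TorD4021. At ind that width was 200 bp both without light and in wild type, and at Rpn12R peak 1 it was 240 and 220 bp. The wild type width of Rpn12R peak 2 is not separate from the chosen dip, which averaged 8.66 beside a highest point of 19.7. After 5 min of light coverage was 4.00-fold lower at the shoulder (2.65 to 6.10) and 4.37-fold lower at the summit part (3.23 to 5.91). After 30 min the folds were 9.31 (5.20 to 19.7) and 9.62 (6.23 to 15.6).

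**Figure D5:**
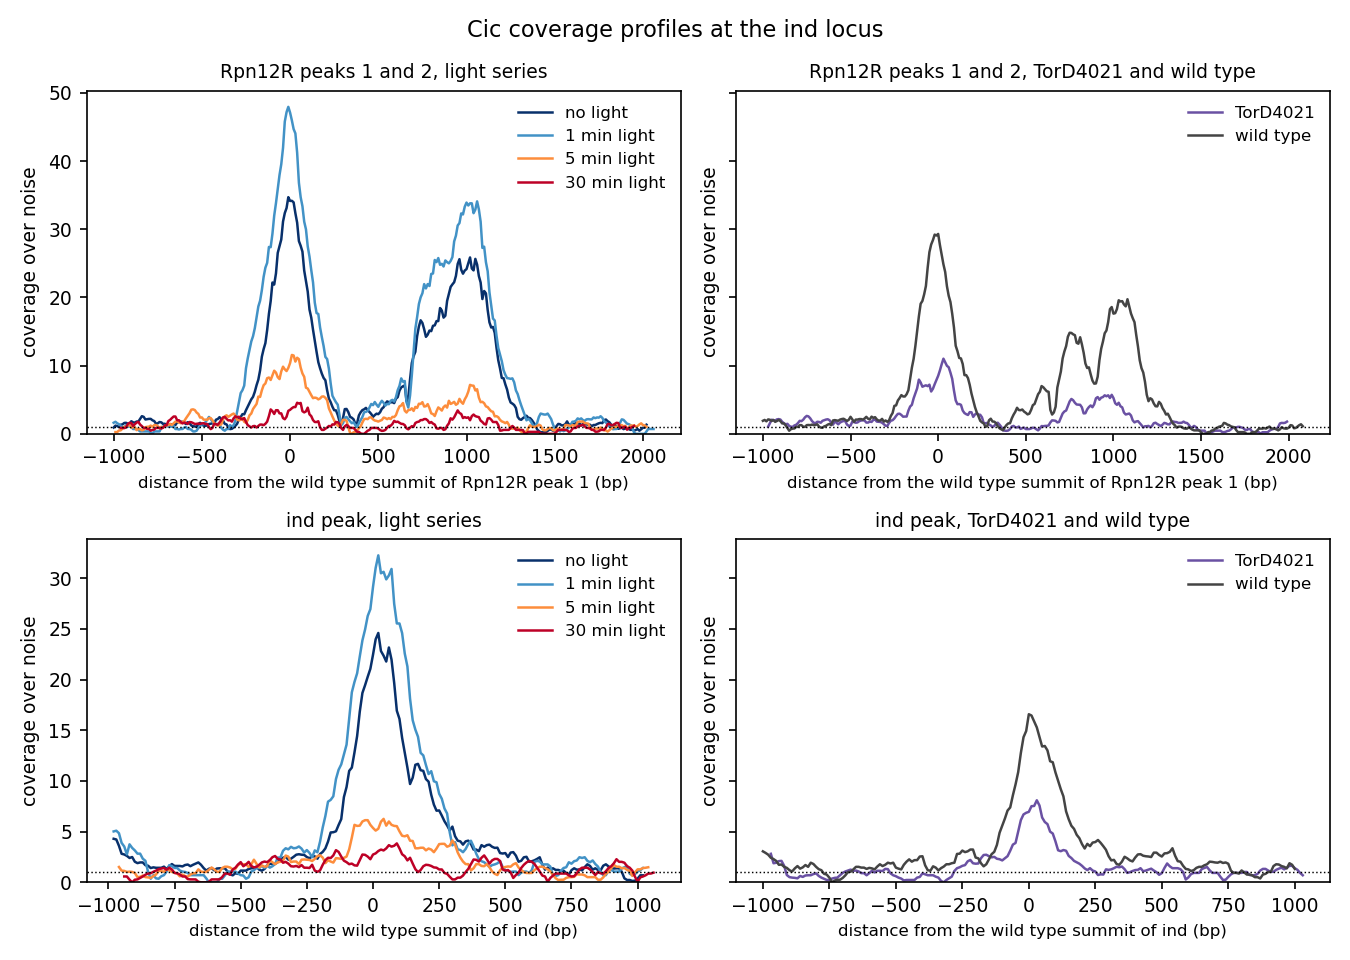
Coverage over noise (y axis, 1 is the noise level, dotted) along the joined windows of the Rpn12R peaks (top) and the ind window (bottom), against the distance in bp from the wild type summit (x axis), for the light series (left) and for TorD4021 and wild type (right). Both Rpn12R summits, the shoulder of Rpn12R peak 2 and the ind summit stand out without light and after 1 min, at up to 34.7 and 47.95 over noise for Rpn12R peak 1, and after 30 min no point near that summit exceeds 4.56.

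In wild type the ind window reached to within 58 bp of the call across the start of ind. In the other conditions the window lay 20 to 60 bp from its wild type place, so its edges are not the same DNA. In the 100 bp at that edge coverage over noise was 2.91 without light (1.69 to 4.65), 3.83 after 1 min (2.20 to 6.47), 0.954 after 5 min (0.308 to 2.21) and 0.459 after 30 min (0.0517 to 1.54), beside 1.46 in TorD4021 (0.594 to 2.71) and 2.19 in wild type (1.17 to 3.95). At the opposite edge it ran from 0.533 to 1.56 over the 6 conditions. Coverage at the side of the start was thus above noise in no light, 1 min and wild type embryos, and within counting error of it in the others. These edges rest on 2.15 to 17.04 read equivalents.

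By pattern over the 6 conditions, measured as the Euclidean distance of log2 coverage over noise after removing the mean of each peak, the peaks most like ind were those of CG32719 (distance 0.267), sty (0.306) and eIF5B (0.480), where the median distance to the other peaks was 1.05. Most like Rpn12R peak 1 were fkh (0.316), CG32719 (0.409) and bbg (0.413), with a median of 1.33. Most like Rpn12R peak 2 were CG15599 (0.469), tll peak 2 (0.575) and Sox21b (0.578), with a median of 1.51. The members themselves lay 0.640 apart within the Rpn12R pair, 0.624 between Rpn12R peak 1 and ind and 0.756 between Rpn12R peak 2 and ind. None was thus among the 3 nearest of another. Among the nearest, tll peak 2 had 4.57 after 5 min and 19.4 without light, and CG32719 had 2.99 and 8.69.

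Other genes that Cic is known to act on were set beside the locus by a list. Of 12 known Cic targets listed, 10 had a final peak, and the 16 peaks of the 9 genes other than ind were all lower beyond counting error after 5 and 30 min of light, as were 93.2% and 95.1% of all final peaks. Their median was 2.24-fold at 5 min (range 1.16 to 5.22), against 2.02-fold over all peaks, and 4.46-fold at 30 min (2.56 to 9.21), against 3.11-fold. In TorD4021 embryos 15 of 16 were lower, with a median of 2.13-fold, against 87.4% and 2.20-fold over all peaks. These counts are close to those over all peaks. At 30 min tll peak 1 (9.21-fold), the terminal gap gene, and tll peak 2 (8.38-fold) lay near Rpn12R peak 2, and sty, a feedback inhibitor of receptor tyrosine kinase signalling, had 5.08-fold, near ind. Of 17 genes that pattern the neuroectoderm along the dorsoventral axis, 7 had a final peak. The 9 peaks of the 6 genes other than ind were all lower after 5 and 30 min, again close to the 93.2% and 95.1% of all peaks. Their median was 1.81-fold at 5 min, below the 2.02-fold of all peaks, and 4.18-fold at 30 min, above the 3.11-fold of all peaks. Among them Egfr, the receptor whose signal ind needs, was 3.41-fold lower at 5 min and 6.22-fold lower at 30 min, and sna, a mesoderm repressor gene, 1.32-fold and 1.79-fold.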

How the data were processed

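The deposited files were a MACS2 call table, a final peak list and 6 matrices. Per the submitters' processing notes, the tools were Trim Galore, BWA 0.7.17-r1188, ChIPseeker, MACS2 and SAMtools, with the build dm6. Calls were made with MACS 2.1.2 on pooled wild type (6994179 tags) against pooled untagged ChIP libraries (5712080 tags), at q 0.01, with an extension of 145 bp, per the file headers. Fold enrichment (a ratio), pileup signal, -log10 p and q values and a score were deposited by the authors per call. The deposited matrices hold a score, the z-score of reads in 10 bp windows relative to noise peaks, with replicates combined, per the contents sheet.

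All z-scores lay on whole steps above the lowest value, with a largest deviation of 9.76e-08 steps, and these were read as read bases above no coverage. Noise coverage was 4.33 (no light), 2.83 (1 min), 3.90 (5 min), 3.47 (30 min), 4.30 (TorD4021) and 3.93 reads (wild type). The contents sheet puts peaks in rows, but the sheets hold them in columns, which were taken to follow the order of the peak list. In wild type, highest coverage over pileup was 0.653, 0.629 and 0.624 at ind and Rpn12R peaks 1 and 2, where tag size, extension and depth scaling give 0.625. Ratio intervals are exact conditional ones on whole read equivalents, tested on simulated data. Differences between members (21 compared, of which 7 excluded 1, and 5 at fixed positions) use the log of the counts. Input libraries were not used. Members, lists and the rule for similar peaks were chosen with earlier results of these data known. Every ind and Rpn12R peak, its 3 nearest peaks by pattern, calls within 50 kb and list members were to be named. Python 3.11.15, NumPy 2.4.6, SciPy 1.17.1 and pandas 2.3.3 were used.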

Additional observations from a re-analysis of the deposited data

Results flagged for a closer look

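The MACS2 call across the start of ind, with a deposited fold enrichment of 2.41, was singled out because it is a signal above the untagged embryos that no condition matrix covers. Its level in light was therefore not measured beyond the edge of the ind window.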

How the results depend on the processing

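All 7 comparisons had 3 of 3 peaks called in 1 direction, and of 58 recomputed counts 56 were unchanged or within 1.5 times. With each window's highest value used as the level, the count called higher was 1 for no light over wild type and 1 for 1 min over no light, where the interval rests on the coverage of 1 window. The count was 2 of 3 in 4 further cases, namely with the highest value for 30 min against 5 min and for 30 min against TorD4021, with windows within 500 bp for 30 min against TorD4021, and with both flanks subtracted for no light over wild type. Windows within 100 bp, alignment by shape, the sign of the z-score difference and 2 alternatives added after the data were seen (outer flanks, deposited intervals at fixed positions) gave 3 of 3 in each of the 7 comparisons. Of 147 single ratios 119 stayed inside the main interval, 28 moved and 0 reversed. Of those that moved, 21 came from subtracting flanks. Both flanks together cannot serve for the Rpn12R peaks, since 1 of them holds the neighbouring peak. Calls within 50 kb numbered 4, or 3 at a -log10 q of at least 5, and 4 within 10 kb. The search for Cic octamers was not run. No paired analysis was possible because the matrices combine replicates, and for the same reason no replicate could be left out. Depth limits the 30 min values, with 51.7, 54.7 and 44.1 read equivalents at ind and Rpn12R peaks 1 and 2.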
